A study of Drosophila melanogaster with 18 samples.

Results

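The twi:CD2+ libraries of this Quantitative enhancer-FACS-Seq (QeFS) series report enhancer activity in the whole mesoderm of the Drosophila melanogaster embryo, in 3 collections with 1 RNA and 1 DNA library each. These 6 libraries, of 18 in the series, were taken by their label, and an RNA and a DNA library were paired where they carried the same collection date. The other 12 libraries come from 6 collections of mef2:CD2- cells. The pool held 88 wildtype and mutant versions of 12 enhancers and 5 control constructs, each with its own 20-base tags in the reporter transcript, and all were inserted at the attP40 landing site. Both populations came from crosses of flies that carried this pool. In the twi:CD2+ embryos the twi promoter drove the rat surface protein CD2, and the CD2-positive cells were sorted. In the other cross the Mef2 I-E D5 enhancer drove CD2 and the CD2-negative cells were kept, so mef2:CD2- cells are the embryo depleted of fusion-competent myoblasts. They are not a CD2-negative counterpart of the twi sort and they still hold other mesoderm. By the labels, all embryos came from 2.25 h of egg laying and 11 h of aging at 18°C. The study's methods also describe a shorter aging at a higher temperature, without saying which collections used it. A sorted population is a mixture of cell types, and a change in the number of cells using an enhancer cannot be told apart from a change in transcript per cell.

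Enhancers are stretches of DNA that bind several transcription factors and raise transcription of a gene in particular cells, and their output can depend on how the bound factors combine. Twist starts mesoderm development in the fly, and Mef2 is the main activator of muscle genes. Each of the 12 enhancers had its sites for 3 of 4 motifs mutated singly and in combination. Deaf1 (suffix D) is a cofactor of the homeotic protein Deformed, Schlank (S) is a membrane protein of lipid synthesis with a homeodomain, ZIPIC (7 in the construct names) is an insulator protein that binds CP190, and CG12236-PB (1) is known mainly by its binding motif. WT marks the wildtype version. The controls were an Act57B actin gene enhancer with or without its Mef2 site, and a BTub60D tubulin gene enhancer with its bagpipe site alone, or its biniou and bagpipe sites together, mutated. Bagpipe and biniou are regulators of the visceral mesoderm.

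The size of the designed changes can be seen in hth_3, an enhancer that bears the name of homothorax, a homeodomain gene on chromosome arm 3R in the RefSeq annotation of Release 6. The same 30 bases of the designed elements are shown 5′ to 3′ for its mutants and wildtype, positions 257 to 286 counted from the first base after the GCTAGC cloning site, with the mutated bases, and in the wildtype the bases they replace, in capitals. The Deaf1 version carried C269G. The ZIPIC version carried G272A, G273C and G274T, so the changes for the 2 motifs lie 2 bases apart. The first 385 bases of each version were compared, sites further on were not examined, and the CG12236-PB version did not differ from wildtype within them.
hth_3-D: agggggcgtggaGgagggccggaggaggaa
hth_3-7: agggggcgtggacgaACTccggaggaggaa
hth_3-D7: agggggcgtggaGgaACTccggaggaggaa
hth_3-WT: agggggcgtggaCgaGGGccggaggaggaa

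Activity was calculated for each tag and collection as the tag's fraction of all RNA UMIs over its fraction of all DNA UMIs, where a UMI is a random 8-base label that marks 1 copied molecule. An activity of 1 is the average of the pool weighted by DNA, so activities are relative to the pool. All 93 constructs were seen in the twi:CD2+ libraries. Requiring 65 DNA UMIs left 705 pairs of tag and collection with RNA, and requiring 4 of these observations per construct left 687 observations of 244 tags in 86 constructs, namely 81 library constructs and all 5 controls. The RNA libraries held 813922 to 1366066 UMIs and the DNA libraries 317396 to 621449. Counting error had a median SD of 0.06 on the log2 scale per observation. An 8-base label has 65536 sequences, and the most abundant tag, of ChIPCRM5432-1, used 46714 of them in 1 RNA library (71.3%), and molecules that share a label are counted once, which lowers the highest counts.

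The remaining 7 constructs did not reach 4 observations and enter no test below. CG7759_33-DS7, ChIPCRM2000-D, ChIPCRM2497-DS, ChIPCRM2613-D7 and ChIPCRM5405-7 had 3 observations each. ChIPCRM3407-DS7 had 2 and ChIPCRM5792-WT had 1, so the ChIPCRM5792 mutants have no wildtype to be set against. Just inside the limit, CBP2862-WT, ChIPCRM2000-7 and ChIPCRM5405-S7 had 4 observations each.

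The 86 constructs spanned a 437-fold range of mean activity in mesoderm cells. Both ends of it were versions of the same enhancer, ChIPCRM5432. Its wildtype averaged 7.90 ± 8.11 (SD, n = 7 observations) and its Deaf1 and CG12236-PB double mutant averaged 0.0181 ± 0.0159 (n = 9). Of all constructs, 32 lay above the pool average of 1 and 54 below it, with a median of 0.556.

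**Figure D1:**
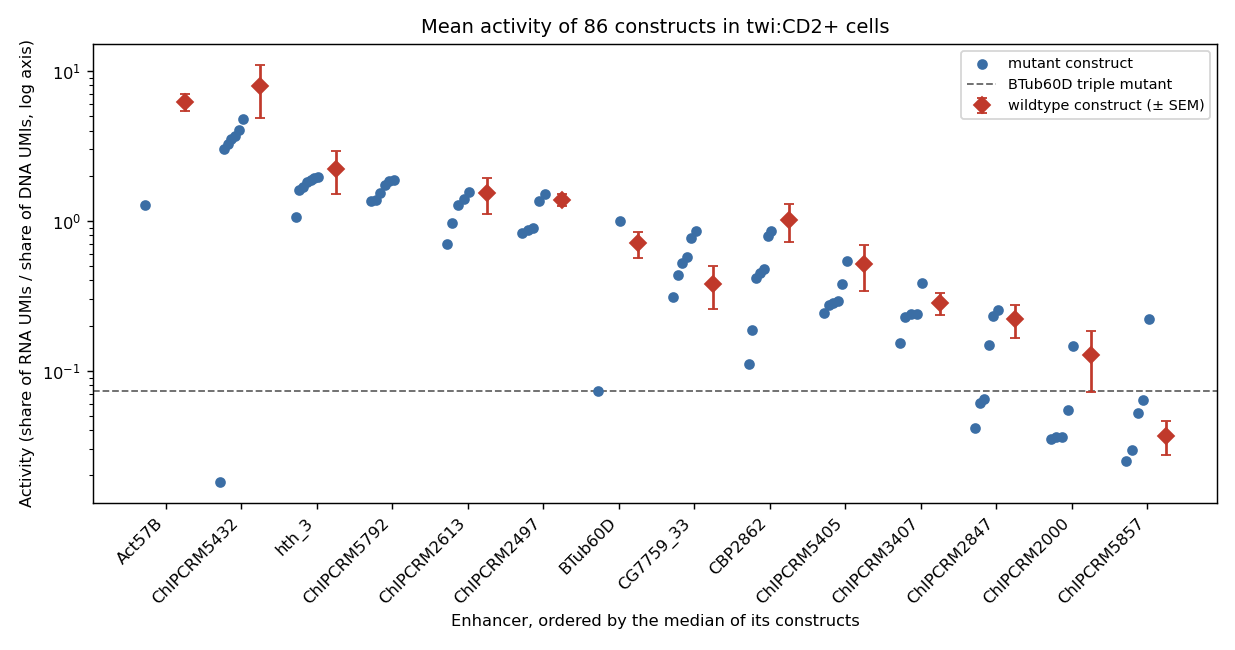
Mean twi:CD2+ activity of the constructs (RNA share over DNA share, log axis), by enhancer. Blue points are mutant constructs, red diamonds wildtype constructs with their SEM over observations, and the dashed line is the BTub60D triple mutant at 0.0731. ChIPCRM5432 holds both the highest construct (wildtype, 7.90) and the lowest (D1, 0.0181).

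The 8 strongest constructs were the Act57B wildtype control and 7 of the 8 versions of ChIPCRM5432. The Act57B control averaged 7.09, 4.14 and 7.16 in collections 1, 2 and 3. After the ChIPCRM5432 wildtype came ChIPCRM5432-7 at 4.76 ± 1.26 (SD, n = 6), ChIPCRM5432-71 at 4.03 ± 1.26 (n = 9) and ChIPCRM5432-D71 at 3.67 ± 2.28 (n = 9). The D7, D and 1 versions followed at 3.49, 3.23 and 3.01. The last place was not stable, since ChIPCRM5432-1 averaged 5.35 with read counts and 3.89 with UMI counts corrected for saturation, above D71, D7 and D in both. The wildtype mean rests partly on 1 observation of 1 tag, at 26.0 from 72 DNA UMIs, while its other 6 observations lay between 1.95 and 6.72. Without that tag, an alternative chosen after seeing the data, the wildtype averaged 4.90 and Act57B_Mef2_WT, at 6.23, was the highest construct.

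The weakest 8 constructs came from 4 enhancers. Above ChIPCRM5432-D1 stood ChIPCRM5857-D1 at 0.0249, ChIPCRM5857-DS1 at 0.0296, ChIPCRM2000-D1 at 0.0351, ChIPCRM2000-7 at 0.0359, ChIPCRM2000-D71 at 0.0363, ChIPCRM5857-WT at 0.0366 and ChIPCRM2847-D at 0.0412. One of them is thus a wildtype enhancer. In all, 14 constructs averaged under 0.1.

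A construct was called active where it exceeded the BTub60D triple site mutant, the low control of the pool, which averaged 0.0955, 0.0813 and 0.0118 in collections 1, 2 and 3. The 10 observations of this control ran from 0.00174 to 0.166, and its tag 4 gave 1 RNA UMI in each of collections 2 and 3. A construct not called above the control is therefore not shown to be inactive. By a two-sided exact permutation test of mean ranks, 65 of 85 constructs were above the low control at a Benjamini-Hochberg adjusted p under 0.1 (76.5%). None was below the low control and 20 were not called. At 46 of the 85 constructs every observation was above every observation of the low control. The uncalled constructs comprised all 6 measured versions of ChIPCRM2000 and all 6 of ChIPCRM5857, the 1, D, D1 and DS1 versions of ChIPCRM2847, CBP2862-D, CBP2862-DS7, ChIPCRM3407-D7 and ChIPCRM5432-D1. Their means were between 0.0181 and 0.223. This test and the tests below of wildtypes, mutants, added mutations and interactions took each tag in each collection as 1 observation. The same tags recur in the 3 collections, so these p-values measure the spread over tags and collections together.

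ChIPCRM5857-S, with only its Schlank sites mutated, averaged 0.223 ± 0.296 (SD, n = 9) and was not called above the low control (exact permutation test, adjusted p = 0.367). Its 3 tags averaged between 0.0241 and 0.567, a 23.5-fold spread and the widest of any construct. Across all 86 constructs the median fold between the highest and lowest tag was 1.91, and 7 constructs exceeded 5-fold.

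The order of the wildtype enhancers ran from ChIPCRM5432 at 7.90 and the Act57B control at 6.23 to hth_3 at 2.22, ChIPCRM2613 at 1.52, ChIPCRM2497 at 1.38, CBP2862 at 1.01, the BTub60D control at 0.706, ChIPCRM5405 at 0.516, CG7759_33 at 0.379, ChIPCRM3407 at 0.282, ChIPCRM2847 at 0.221, ChIPCRM2000 at 0.128 and ChIPCRM5857 at 0.0366. Of the 78 pairs of these 13 wildtype constructs, 62 differed (exact permutation test, adjusted p under 0.1, 79.5%). Neighbours mostly did not. Only 2 of the 12 neighbouring pairs were called: Act57B was 2.80-fold above hth_3 (adjusted p = 0.00114) and ChIPCRM2000 was 3.49-fold above ChIPCRM5857 (adjusted p = 0.0240). The second call rests on collection 3, where 1 tag of ChIPCRM2000-WT read 0.446, and without that collection the ratio was 1.89 and not called (exact permutation test, adjusted p = 0.169). Along this order the other 10 neighbours differed by 1.10-fold to 1.73-fold and were not called.

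Which enhancer a construct derived from accounted for 74.1% of the variance of log2 mean activity over the 81 library constructs, with the rest among the versions of 1 enhancer. The versions of ChIPCRM5792 stayed within 1.37-fold of each other (1.36 to 1.86), those of ChIPCRM2497 within 1.84-fold and those of hth_3 within 2.09-fold. CBP2862 spanned 9.13-fold, ChIPCRM5857 spanned 8.97-fold and ChIPCRM2847 spanned 6.12-fold.

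The 3 collections ranked the constructs alike. Spearman's ρ of construct means was 0.940 for collections 1 and 2, 0.927 for 1 and 3, and 0.914 for 2 and 3 (n = 86 constructs of the same pool, given as a description). Over single tags it was 0.883, 0.861 and 0.822. Agreement in rank left room for sizeable differences in level: between 18.6% and 26.7% of construct means differed by more than 2-fold in a pair of collections. The SD between collections of a tag was 0.98 on the log2 scale, against 0.51 between tags of a construct and 2.07 between construct means. ChIPCRM5857-1, for example, averaged 0.115, 0.00190 and 0.0736 in collections 1, 2 and 3.

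**Figure D2:**
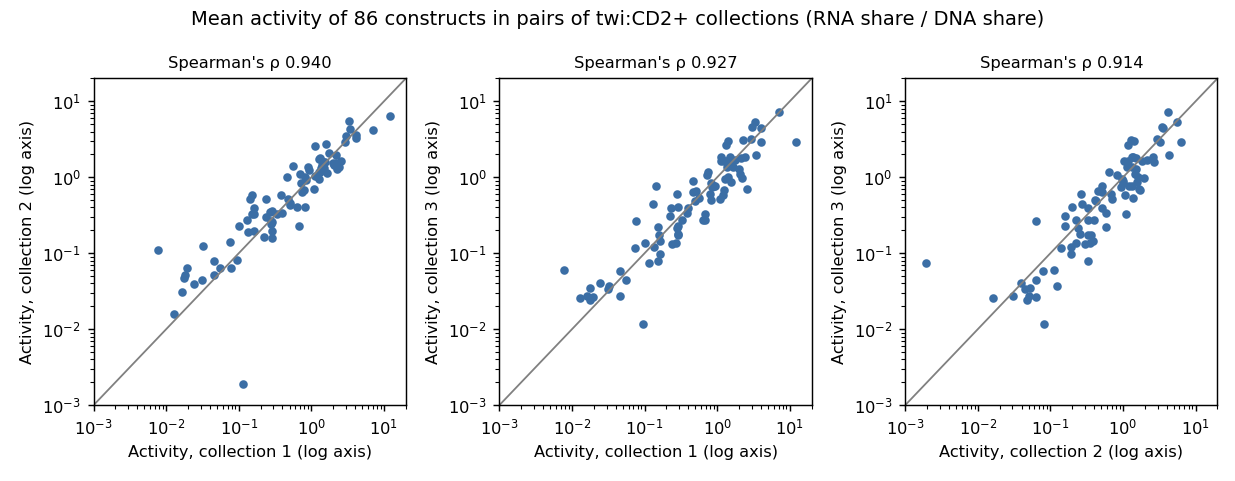
Mean activity of the 86 constructs in each pair of twi:CD2+ collections, both axes logarithmic and in units of RNA share over DNA share, with the line of equality. The points follow the line, with Spearman's ρ between 0.914 and 0.940, and the low constructs scatter most.

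Of the control mutants, the Act57B Mef2 site mutant and the BTub60D triple mutant lost activity. Act57B_Mef2_Mut averaged 1.26, 1.71 and 0.685 in collections 1, 2 and 3, against 7.09, 4.14 and 7.16 for Act57B_Mef2_WT. No observation overlapped, and the fold change was 0.203 ± 0.037 (SE) with an adjusted p of 5.67e-06 by the exact permutation test. The BTub60D triple mutant averaged 0.0955, 0.0813 and 0.0118, against 0.688, 1.11 and 0.326 for BTub60D_WT, again without overlap (fold change 0.103 ± 0.036, exact permutation test, adjusted p = 2.32e-05). With only the bagpipe site mutated, the enhancer averaged 1.00 ± 0.880 (SD, n = 9), against 0.706 ± 0.488 (n = 12) for the wildtype. This difference was not called (exact permutation test, adjusted p = 0.736). The bagpipe mutant averaged above the wildtype in each of the 3 collections, but its fold change with geometric means was 0.959. The paper reports a decrease for this mutant by QeFS in mef2:CD2- cells.

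Among all 67 mutants with a measured wildtype, 15 were called lower (22.4%) and 3 higher (4.48%), after a Kruskal-Wallis permutation test that reached p under 0.1 in 10 of the 14 series. The 4 series that did not reach it were ChIPCRM5405, ChIPCRM5792, ChIPCRM5857 and hth_3. Of the 64 library mutants, 49 lay below their wildtype and 15 above, with a median fold change of 0.700 and extremes of 0.00229 (ChIPCRM5432-D1) and 6.09 (ChIPCRM5857-S, not called). The 18 calls fell in the 2 control series and in 6 of the library enhancers, CBP2862, CG7759_33, ChIPCRM2497, ChIPCRM2847, ChIPCRM3407 and ChIPCRM5432.

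**Figure D3:**
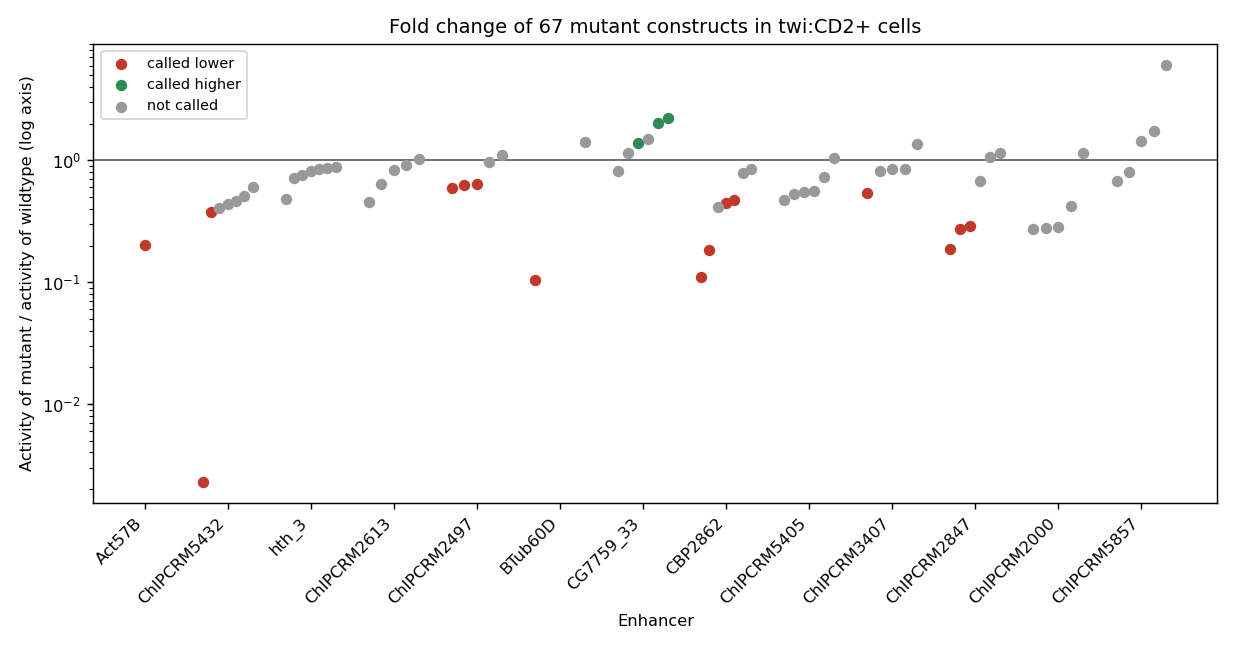
Fold change (mutant over wildtype mean activity, log axis) of the 67 mutants by enhancer in twi:CD2+ cells, red where called lower, green where called higher, grey where not called. Most points lie at or below 1, the 3 green points belong to CG7759_33, and ChIPCRM5432-D1 stands alone at 0.00229.

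With Deaf1 and CG12236-PB sites mutated together, ChIPCRM5432 was nearly silent. ChIPCRM5432-D1 averaged 0.0128, 0.0160 and 0.0255 in collections 1, 2 and 3, against 12.3, 6.32 and 2.89 for the wildtype. All 3 of its tags were low, at means of 0.00681, 0.0203 and 0.0272, with 16 to 174 RNA UMIs per observation from well covered reporter DNA of 1074 to 3881 UMIs. The fold change was 0.00229 ± 0.00111 (SE, exact permutation test, adjusted p = 0.000490). It was 0.00450 without collection 1 and 0.00370 without the high wildtype tag, and the call held in both. Neither single mutant came near it, with ChIPCRM5432-D at 3.23 ± 1.66 (SD, n = 9) and ChIPCRM5432-1 at 3.01 ± 0.284 (n = 6). ChIPCRM5432-D was lower than wildtype in all 3 collections but was not called (fold change 0.409, exact permutation test, adjusted p = 0.105). The paper reports a significant decrease for ChIPCRM5432-D in the same cells. ChIPCRM5432-1 was called lower than wildtype (fold change 0.380, exact permutation test, adjusted p = 0.0632), but it was lower in only 2 of 3 collections and was called in only 6 of 12 alternative tests. It was not called without the 1 high wildtype tag (0.614), with read counts (0.712), with UMI counts corrected for saturation (0.493), with a minimum of 200 DNA UMIs, or without collection 1 or collection 2.

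The triple mutant of the same enhancer, which lacks ZIPIC sites as well, was active. ChIPCRM5432-D71 averaged 3.02, 3.44 and 4.55 in collections 1, 2 and 3, against 0.0128, 0.0160 and 0.0255 for ChIPCRM5432-D1. The 2 constructs shared no part of their range, and adding the ZIPIC mutation went with a 203-fold higher activity (exact permutation test, adjusted p = 0.000288). In the other alternatives that changed the observations this ratio was 193 to 275. ChIPCRM5432-D71 was not called different from the wildtype (fold change 0.465 ± 0.204 SE, exact permutation test, adjusted p = 0.166).

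**Figure D4:**
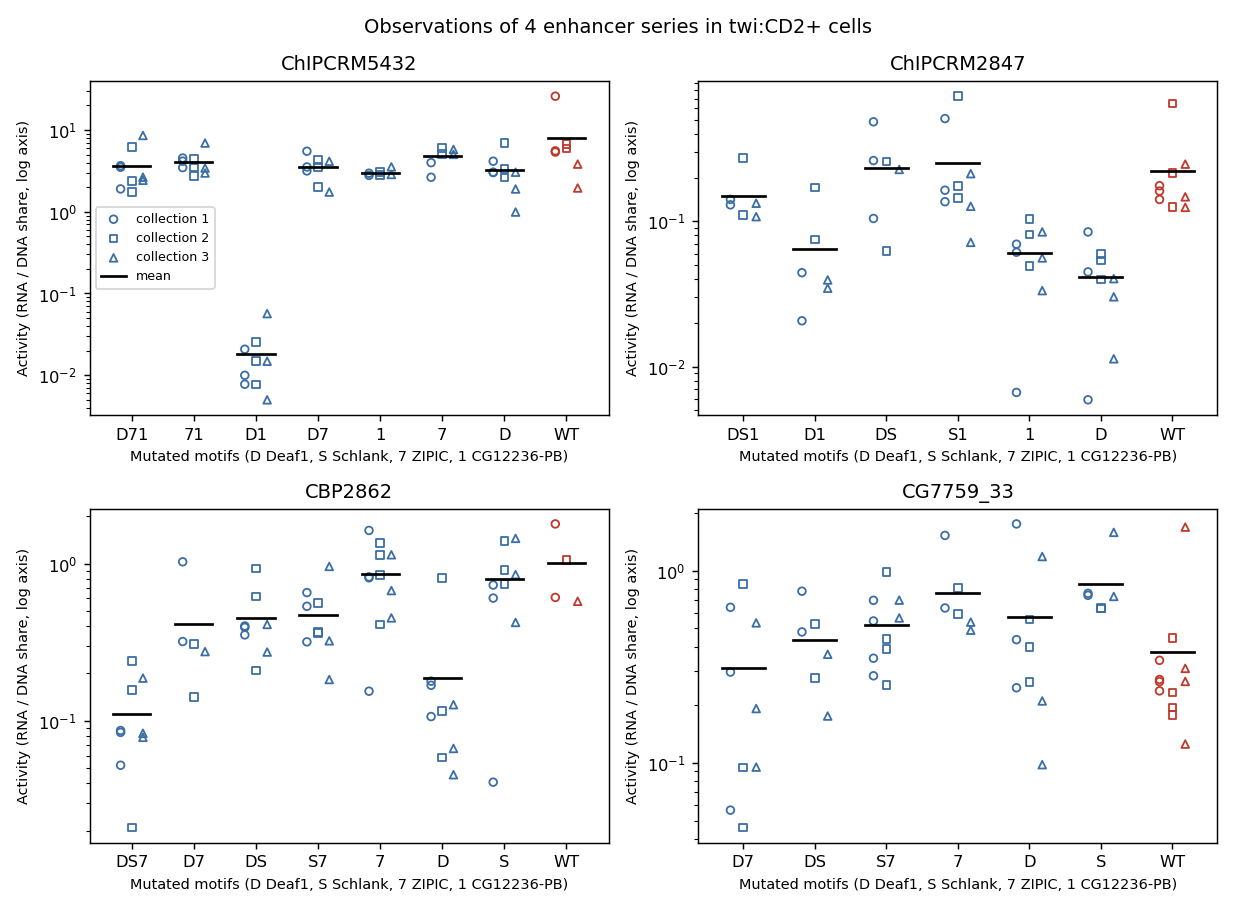
Every observation (1 tag in 1 collection, symbols by collection) and the mean (line) of 4 enhancer series in twi:CD2+ cells on log axes, mutants in blue and wildtype in red. In ChIPCRM5432 only D1 is low while D71 is with the rest, and in ChIPCRM2847 D, 1 and D1 are low while DS and S1 lie at the level of the wildtype.

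In ChIPCRM2847, mutation of Deaf1 or CG12236-PB sites lowered activity and the double mutant was no lower than either. ChIPCRM2847-D averaged 0.0451, 0.0512 and 0.0273 in collections 1, 2 and 3, against 0.160, 0.329 and 0.173 for the wildtype, with no overlap of observations (fold change 0.187 ± 0.059 SE, exact permutation test, adjusted p = 0.000432). ChIPCRM2847-1 had a fold change of 0.275 ± 0.082, also without overlap, and ChIPCRM2847-D1 one of 0.291 ± 0.126. None of these 3 mutants was called above the low control.

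Each of these 3 versions was lower than its counterpart with the Schlank site mutated as well. No ChIPCRM2847-S construct was seen, so the Schlank mutation alone was not measured in this enhancer. ChIPCRM2847-DS averaged 0.284, 0.160 and 0.228, against 0.0451, 0.0512 and 0.0273 for ChIPCRM2847-D, a ratio of 5.66 (exact permutation test, adjusted p = 0.00120). ChIPCRM2847-S1 stood 4.15-fold above ChIPCRM2847-1 (adjusted p = 0.000839, exact permutation test), and ChIPCRM2847-DS1 stood 2.33-fold above ChIPCRM2847-D1 (adjusted p = 0.0417, exact permutation test). DS, S1 and DS1 averaged 0.233, 0.252 and 0.149, against 0.221 in the wildtype, and were not called different from it. All 3 ratios of the added Schlank mutation were above 1 in each of the 3 collections.

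All 7 mutants of CBP2862 lay below its wildtype, and 4 were called. CBP2862-D averaged 0.151, 0.327 and 0.0796 in collections 1, 2 and 3, against 1.20, 1.05 and 0.575 for the wildtype (fold change 0.185 ± 0.094 SE, exact permutation test, adjusted p = 0.0131). CBP2862-DS7 was lowest at a fold change of 0.109 ± 0.039 (exact permutation test, adjusted p = 0.00653), with no overlap with the wildtype. CBP2862-DS and CBP2862-S7 were called at 0.446 and 0.471. The wildtype had 2 tags and 4 observations, fewer than the minimum once any collection was left out, so these 4 calls could not be tested over 2 collections. CBP2862-DS and CBP2862-S7 were also not called with a minimum of 20 DNA UMIs or 65 DNA reads.

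CG7759_33 was the only series in which mutants were called higher than wildtype. CG7759_33-S averaged 0.753, 0.638 and 1.16 in collections 1, 2 and 3, against 0.278, 0.262 and 0.596 for the wildtype (fold change 2.24 ± 0.82 SE, exact permutation test, adjusted p = 0.0102). CG7759_33-7 stood at 2.02 ± 0.77 but was higher in only 2 of 3 collections, and CG7759_33-S7 stood at 1.38 ± 0.48. The groups overlapped in each of the 3. Without collection 1, or without collection 2, none of these 3 mutants was called. CG7759_33-S7 was also not called with read counts or with a minimum of 200 DNA UMIs. With 1 tag left out it was called in 2 of 8 fits, against 6 of 6 for CG7759_33-S and for CG7759_33-7.

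The calls in ChIPCRM2497 all involved CG12236-PB. ChIPCRM2497-1, ChIPCRM2497-S1 and ChIPCRM2497-DS1 had fold changes of 0.632 ± 0.101, 0.644 ± 0.088 and 0.596 ± 0.126 (SE), whereas ChIPCRM2497-D and ChIPCRM2497-S stood at 0.979 and 1.10 and were not called. ChIPCRM2497-DS1 was lower than the wildtype in 2 of 3 collections and the others in all 3. None of the 3 was called without collection 1 or without collection 3, and ChIPCRM2497-1 was also not called without collection 2. With a minimum of 65 DNA reads in place of UMIs, ChIPCRM2497-S1 had a fold change of 1.27 and was not called. ChIPCRM3407-D7, at 0.540 ± 0.151, was called at an adjusted p of 0.0990 by the exact permutation test, next to the threshold. It was not called in 6 of 12 alternative tests, namely without collection 1, without collection 3, with the collection as a replicate block, with a minimum of 20 DNA UMIs or 65 DNA reads, and with UMI counts corrected for saturation. ChIPCRM3407-S stood highest of that series at a fold change of 1.35, not called.

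In the series with no called mutant, the extremes were wide but so was the spread. ChIPCRM2000 ran from a fold change of 0.275 (D1) to 1.15 (1), ChIPCRM2613 from 0.457 (D1) to 1.02 (7), ChIPCRM5405 from 0.470 (D) to 1.05 (D7), ChIPCRM5857 from 0.679 (D1) to 6.09 (S), and hth_3 from 0.478 (D) to 0.885 (D71). For hth_3, whose site changes are printed above, hth_3-D averaged 1.28, 0.954 and 0.951 in collections 1, 2 and 3, against 2.29, 1.29 and 3.08 for the wildtype. It was lower in each collection, yet its adjusted p was 0.439 by the exact permutation test, and the wildtype observations themselves ran from 0.251 to 7.32.

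By number of motifs mutated, 5 of 29 single mutants were called lower and 2 higher, 6 of 27 double mutants lower and 1 higher, and 2 of 8 triple mutants lower. Median fold changes were 0.789, 0.679 and 0.573. Single Deaf1 mutants had a median of 0.478 over 9 enhancers, from 0.185 (CBP2862-D) to 1.51 (CG7759_33-D), and 2 were called lower. The single CG12236-PB mutants had a median of 0.755 over 7, with 3 called lower, from 0.275 (ChIPCRM2847-1) to 1.74 (ChIPCRM5857-1). Single ZIPIC mutants had a median of 0.846 over 7, with 1 called higher, from 0.281 (ChIPCRM2000-7) to 2.02 (CG7759_33-7). Single Schlank mutants had a median of 1.22 over 6, with 1 called higher, from 0.565 (ChIPCRM5405-S) to 6.09 (ChIPCRM5857-S). All 12 mutants lacking both Deaf1 and CG12236-PB sites lay below their wildtype by mean activity, beside 49 of all 64 library mutants. Their median was 0.530, and 3 of them were called. With geometric means, hth_3-D1 (1.11), hth_3-D71 (1.03) and ChIPCRM5857-DS1 (1.01) lay above their wildtype. For calls of lower activity, the counts of these motif groups stand beside 15 of 67 over all mutants (22.4%), and nothing particular to a group is read from them.

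Every pair of constructs that differs by the sites of 1 motif was then compared, whatever the other sites. Over 102 such pairs the added mutation was called lower in 19 (18.6%) and higher in 7 (6.86%) by the exact permutation test of its series. An added Deaf1 mutation was called lower in 9 of 34 pairs from 6 enhancers and higher in none. Adding a CG12236-PB mutation was called lower in 5 of 22 pairs from 3 enhancers and higher in none. Added ZIPIC mutations went both ways, 3 lower and 2 higher of 27. Added Schlank mutations were called lower in 2 and higher in 5 of 19, the 5 in CBP2862, CG7759_33 and ChIPCRM2847. Pairs of 1 enhancer share constructs, so these counts are not of independent comparisons.

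**Figure D5:**
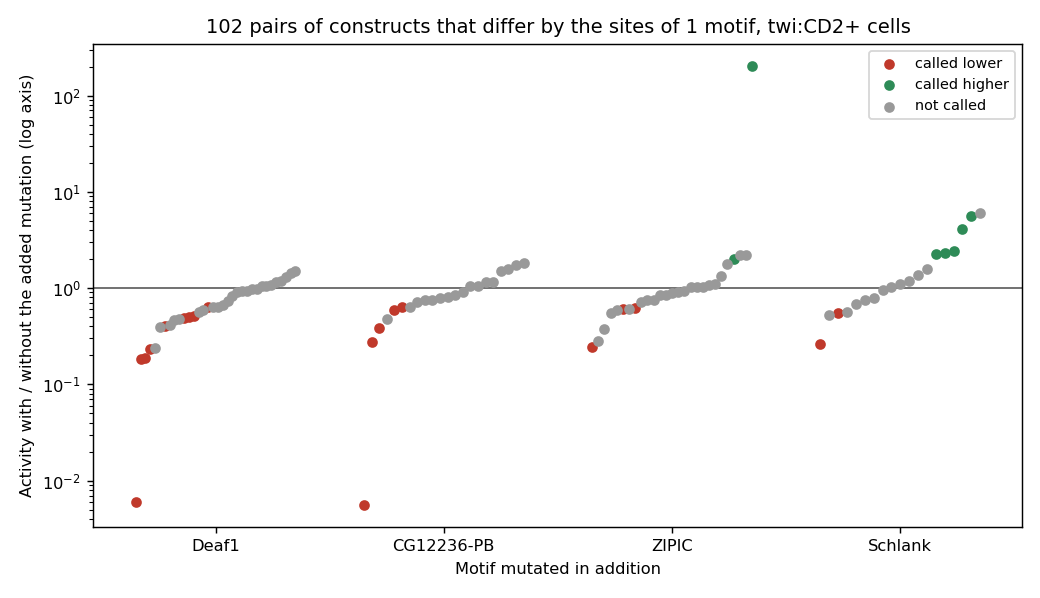
Ratio of activity with to without the added mutation (log axis) for 102 pairs of twi:CD2+ constructs that differ by 1 motif, sorted within each motif, with colours as in the plot of fold changes. The called Deaf1 and CG12236-PB pairs are all below 1, 5 of the 7 called Schlank pairs are above 1, and the ZIPIC point at 203 is ChIPCRM5432-D71 over D1.

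CBP2862 shows the same added mutation going both ways. Mutating Schlank sites raised CBP2862-D 2.41-fold to 0.448 in CBP2862-DS (exact permutation test, adjusted p = 0.0198). On the background that also lacks ZIPIC sites it lowered activity, to 0.110 in CBP2862-DS7 against 0.414 in CBP2862-D7, a ratio of 0.266 (exact permutation test, adjusted p = 0.0131). Both directions held in all 3 collections.

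Interactions between motifs were measured as the departure of the double mutant from the product of the single effects on the log2 scale. Of 20 interactions with all 4 constructs measured, 5 were called (adjusted p under 0.1 over all 20, 25%), 3 below the product and 2 above it. In ChIPCRM5432, the Deaf1 and CG12236-PB interaction was −6.73 ± 0.65 (SE), with a permutation p of 1e-05, the smallest the 100000 permutations can give. CG7759_33 gave −2.03 ± 0.52 for Schlank with ZIPIC (permutation adjusted p = 0.00420) and −2.33 ± 0.81 for Deaf1 with ZIPIC (permutation adjusted p = 0.0357). There, CG7759_33-S7 at 0.522 and CG7759_33-D7 at 0.312 lay below the single mutants S at 0.850, 7 at 0.766 and D at 0.572.

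The same pair of motifs had the opposite sign in ChIPCRM2847, where Deaf1 with CG12236-PB gave 2.56 ± 0.76 (permutation adjusted p = 0.00573) and the double mutant, with a geometric mean of 0.0503, lay above the product of the single effects on geometric means, 0.00851. That product lies below 0.0139, the geometric mean of ChIPCRM5432-D1, the construct with the lowest mean activity. ChIPCRM2847-D, ChIPCRM2847-1 and ChIPCRM2847-D1 were not called above the low control. Whether a floor of the assay limits this double mutant was not tested. CBP2862 gave 2.33 ± 0.91 for Deaf1 with Schlank (permutation adjusted p = 0.0557). Each of the 5 called interactions had its sign in all 3 collections. The difference between ChIPCRM5432 and ChIPCRM2847 was not itself tested. For hth_3 the Deaf1 with CG12236-PB interaction was 1.17 ± 0.68 and not called (permutation adjusted p = 0.241).

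Few constructs were called different between the populations. On summed UMI counts edgeR's quasi-likelihood test gave 1 of 90 constructs higher in twi:CD2+ cells (1.11%) and 2 lower (2.22%) at an adjusted p under 0.05, with 20 at an unadjusted p under 0.05. The mef2:CD2- collections fell in 2 weeks, and week, fly strain and population cannot be told apart in this comparison. Act57B_Mef2_WT averaged 6.23 ± 2.58 (SD, n = 10) in twi:CD2+ cells, against 5.11 ± 2.45 (n = 20) in mef2:CD2- cells, and BTub60D_WT averaged 0.706 ± 0.488 (n = 12) in twi:CD2+ cells, against 0.697 ± 0.398 (n = 21) in mef2:CD2- cells. Neither control was called, with an edgeR fold of 1.13 for Act57B_Mef2_WT (edgeR adjusted p = 0.856) and 0.680 for BTub60D_WT (edgeR adjusted p = 0.384). These folds used UMIs summed over all tags of a construct, unlike the averages. Activities are relative to the pool, and the scaling in edgeR centres the folds as well, so a change shared by most constructs could not be seen. These controls therefore do not test the mesoderm label, and the files hold no endogenous gene to set it against.

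The construct higher in twi:CD2+ cells was CG7759_33-D7, at 0.312 ± 0.295 (SD, n = 9) in twi:CD2+ cells, against 0.103 ± 0.049 (n = 18) in mef2:CD2- cells, with an edgeR fold of 3.62 (adjusted p = 0.000100). Its 3 tags in twi:CD2+ cells averaged 0.677, 0.0658 and 0.194, so that 1 tag carried most of the level. The 2 lower constructs were ChIPCRM2000-71 and ChIPCRM3407-7. ChIPCRM2000-71 averaged 0.0545 ± 0.0175 (SD, n = 6) in twi:CD2+ cells, against 0.196 ± 0.043 (n = 12) in mef2:CD2- cells. Its edgeR fold was 0.288 (edgeR adjusted p = 0.000138). ChIPCRM3407-7 averaged 0.239 ± 0.105 (n = 5, from 2 tags) in twi:CD2+ cells, against 1.04 ± 1.08 (n = 12) in mef2:CD2- cells. Its edgeR fold was 0.236 (edgeR adjusted p = 0.000334). The paper compared mutant effects of QeFS in mef2:CD2- cells with whole-embryo RT-qPCR. It reports 1 discordant mutant, which imaging in the ChIPCRM3407 series showed to be a QeFS false positive. Its text does not name that mutant, and elsewhere it reports an increase for the ZIPIC mutation of ChIPCRM3407 in mef2:CD2- cells. ChIPCRM5432-D1 was low in both populations, at 0.0181 in twi:CD2+ cells, against 0.0203 in mef2:CD2- cells (edgeR adjusted p = 0.744).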

How the data were processed

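Per the labels and the study's methods, reads began with an 8-base UMI. The authors trimmed reads with cutadapt 1.14, aligned the tags with Bowtie to their tag table and counted different UMIs and reads per tag. The deposited counts are whole numbers with no normalization, and processing notes also name R 3.5.1. Alignment and UMI counting could not be varied.

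Activities were computed from UMI counts in Python 3.11.15 (numpy 2.4.6, scipy 1.17.1, pandas 2.3.3, matplotlib 3.10.9). The threshold of 0.1 follows the study's methods, and exact permutation replaced the t distribution. The methods give the filters as 65 DNA read counts per tag and day and 4 tags per enhancer. Here they were applied to DNA UMIs and to observations of tags in collections, which is stricter for DNA, since the twi:CD2+ DNA libraries held 46.0 to 84.5 reads per UMI, and a minimum of 65 DNA reads was added as an alternative after seeing the data. Series were tested by Kruskal-Wallis with 100000 permutations and then for all pairs with Benjamini-Hochberg adjustment within the series. Constructs against the low control and interactions were adjusted over all of them. edgeR 4.0.16 with limma 3.58.1 in R 4.3.3 used TMM, 1 term per collection, and kept constructs reaching 10 counts in each library. DESeq2 1.42.0 was an alternative. Scripts were checked on simulated data. RNA and DNA libraries of a collection were paired by date, and populations were not paired with each other.

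Named constructs are all wildtypes, the controls, the 8 highest and 8 lowest, every called mutant, the extremes of each enhancer and constructs of called interactions. Pairs of added mutations and the tag of ChIPCRM5432-WT were examined after seeing the data. The members and lists were chosen with earlier results of these data known. Counting SDs cover counting error only. The SDs and SEs printed with activities, fold changes and interactions reflect the spread over tags and collections.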

Additional observations from a re-analysis of the deposited data

Results flagged for a closer look

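The effects of 3 mutations, as log2 of mutant over wildtype, differed between populations at an unadjusted p under 0.05. The test was a two-sided exact permutation test of 3 twi:CD2+ against 6 mef2:CD2- collections. None held after adjustment over all 66 mutants compared (exact permutation test, adjusted p = 0.786 each). With these collections the smallest p is 0.0238, so 3 mutants alone could not pass that adjustment whatever their effects. For CG7759_33-D7 the mean effect was −0.18 in twi:CD2+ cells, against −2.42 in mef2:CD2- cells, a difference of 2.24 (exact permutation p = 0.0238, the smallest this design allows), and it was below 0 in 1 of 3 and 6 of 6 collections. For ChIPCRM2497-D it was −0.02 in twi:CD2+ cells, against −0.44 in mef2:CD2- cells, a difference of 0.43 (exact permutation p = 0.0476). For ChIPCRM3407-7 it was −0.21 in twi:CD2+ cells, against 2.51 in mef2:CD2- cells, a difference of −2.73 (exact permutation p = 0.0238). The paper reports a QeFS false positive in mef2:CD2- cells within the ChIPCRM3407 series, without naming the mutant in its text. None of these 3 mutants was called different from its wildtype in twi:CD2+ cells.

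The 7 constructs that missed the minimum of 4 observations also gave reporter RNA in the twi:CD2+ libraries, summed over the 3 collections. CG7759_33-DS7 gave 43186 RNA UMIs from 8213 DNA UMIs of 1 tag, ChIPCRM2497-DS gave 11173 from 3723, ChIPCRM5405-7 gave 6981 from 10533, and ChIPCRM2613-D7 gave 6312 from 3912. ChIPCRM5792-WT gave 2317 from 675, ChIPCRM3407-DS7 gave 408 from 680, and ChIPCRM2000-D gave 267 from 3345. These are raw counts, not scaled to library totals. Activities at the DNA minimum were 2.22 to 2.25 for CG7759_33-DS7, 0.8 to 1.56 for ChIPCRM2497-DS and 0.18 to 0.341 for ChIPCRM5405-7. They were 0.342 to 1.38 for ChIPCRM2613-D7, 0.987 for ChIPCRM5792-WT, 0.106 and 0.292 for ChIPCRM3407-DS7, and 0.012 to 0.0898 for ChIPCRM2000-D.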

How the results depend on the processing

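Leaving out 1 collection at a time left 6 to 11 mutants called lower and 0 to 4 higher, 7 to 11 added mutations lower and 3 to 5 higher, and 2 to 6 interactions. CBP2862 has no usable wildtype in those fits. Tag means in 1 linear model gave 7 mutants lower and 1 higher, and 7 added mutations lower and 4 higher. Adjustment over all mutants left 9 lower. The 6 mutants called lower whichever tag was left out were Act57B_Mef2_Mut, the BTub60D triple mutant, ChIPCRM2847-1, ChIPCRM2847-D, ChIPCRM2847-D1 and ChIPCRM5432-D1, which also held in all 12 other tests. A minimum of 20 DNA UMIs left 3 interactions and an enhancer share of 72.3%. A minimum of 65 DNA reads in place of UMIs, chosen after seeing the data, left 11 mutants lower, 3 higher, 56 constructs above the low control, 3 interactions, a correlation of 0.816, an SD between collections of 1.11 and an enhancer share of 70.9%.

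Across fits without 1 collection, the correlation of tags between collections (0.861) was 0.818 to 0.881, the SD between tags 0.382 to 0.680, the SD between collections 0.905 to 1.03 (1.17 with read counts), the enhancer share 72.1% to 73.4%, and the ratio of highest to lowest construct 272.4 to 688.

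In edgeR's comparison of populations, DESeq2 called 6 higher and 5 lower, read counts 2 higher, week 1 of mef2:CD2- alone 4 lower, week 2 alone 5 higher and 5 lower, tags at the DNA minimum in every collection 6 higher, and leaving out 1 collection 1 to 3 higher and 2 to 5 lower. Against week 1 alone, BTub60D_WT was lower in twi:CD2+ cells (log2 −0.97, edgeR adjusted p = 0.00793).

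With the collection as a replicate block, 15 mutants were lower, ChIPCRM3407-D7 no longer among them, and 3 higher, 20 added mutations lower and 7 higher, 67 constructs stood above the low control, 60 wildtype pairs differed and 5 interactions were called. Without the block, edgeR called 1 higher and 2 lower.

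Fold changes were recomputed for 35 mutants, the called ones and the extremes of each enhancer. Of the called ones, ChIPCRM2497-S1 changed direction, to 1.27, with the minimum of 65 DNA reads. Uncalled ones among the 35 crossed 1 with that minimum for ChIPCRM2613-7 (0.206) and ChIPCRM5405-D (1.08), with geometric means for BTub60D_bap_Mut (0.959), ChIPCRM5405-D7 (0.755) and hth_3-D71 (1.03), with read counts for CBP2862-7 (1.11) and ChIPCRM2000-1 (0.709), and with summed shares for CG7759_33-D7 (1.15) and hth_3-D71 (1.04). Leaving out 1 collection at a time gave 0.693 to 1.23 for CG7759_33-D7, 0.746 to 2.11 for ChIPCRM2000-1, 0.753 to 1.45 for ChIPCRM2613-7, 0.968 to 1.27 for ChIPCRM2847-S1, 0.872 to 1.30 for ChIPCRM5405-D7, 0.447 to 1.19 for ChIPCRM5432-7 and 0.593 to 1.20 for hth_3-D71. The cause was not tested for any of these. Over all 67 mutants, 11 crossed 1 with geometric means, none of them called. Counting SD per observation reached 1.45 on the log2 scale.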
